A study of Mus musculus with 6 samples.

Results

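The Ly6 genes Ly6a, Ly6e, Ly6c1, Ly6c2, Ly6g and Ly6i encode small surface antigens used to sort mouse blood stem cells, monocytes and neutrophils. They are 6 of the 49585 genes in a deposited count table from mouse bone marrow leukaemia cells. The genes were chosen by symbol, through an annotation match of their identifiers, with their levels in the Gata2 KO and Gata2 f/f libraries already known. Genotype differences of these 6 genes are therefore described below without a test.

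The cells are called MA9, in common usage leukaemias made with the fusion of MLL and AF9. The 3 Gata2 KO cultures carried a deletion of Gata2, also written Gata2 -/-, and their sample descriptions name them Cre. The 3 Gata2 f/f cultures carried loxP-flanked Gata2 alleles, and their descriptions name them f-f. Deletion and Cre go together by label, so their effects cannot be told apart. The sources used here do not give the promoter that drives Cre, the age of the animals or the number of leukaemias behind the cultures. All 6 cultures had received 5 uM Nutlin for 18 h and grew in medium with serum, interleukin-3, interleukin-6 and stem cell factor. Nutlin is a small molecule that keeps MDM2 off p53, the tumour suppressor, so that p53 accumulates. No culture without Nutlin was analysed here. Libraries are named by genotype and by the number, 1 to 3, in their titles.

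Ly6 proteins are short, rich in cysteine, and held at the outer face of the cell membrane by a glycosylphosphatidylinositol (GPI) anchor. Different members mark different blood cells, and interferons raise several of them. Gata2 itself is a DNA-binding factor needed by blood stem and progenitor cells.

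Total counts per library ran from 17138687 to 26440960, so an abundant member was measured with little counting error and one with about 10 counts was not. The targeted gene went against 1 label. Gata2 had 5.44, 43.3 and 4.33 CPM, the count scaled to a TMM-normalised library size, in labelled Gata2 KO libraries 1, 2 and 3, against 33.6, 22.3 and 18.4 CPM in Gata2 f/f 1, 2 and 3. Of all 6, the most Gata2 was in the library labelled Gata2 KO 2, and every genotype value below includes it. Both libraries numbered 3 stood apart from the other 4. They also had the highest total counts, 26440960 in Gata2 KO 3 and 25158033 in Gata2 f/f 3. The meaning of the numbers is not stated in the labels.

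The 6 genes lie together on mouse chromosome 15. Between the left end of Ly6e and the right end of Ly6g, at positions 74955051 to 75159126 of GRCm38, the GENCODE annotation holds 13 genes over 204.1 kb. The 6 protein-coding ones are the 6 members, and the others are 4 pseudogenes and 3 further noncoding entries. From left to right the members are Ly6e (74955051 to 74959905), Ly6i (74979534 to 74983430), Ly6a (74994877 to 74998031), Ly6c1 (75044018 to 75048830), Ly6c2 (75108158 to 75111970) and Ly6g (75155240 to 75159126). Ly6e and Ly6g are on the plus strand and the other 4 on the minus strand. No annotated gene overlapped any of them, so reads from an antisense partner in this annotation could not enter their counts.

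Ly6c1 and Ly6c2, whose products together carry the Ly6C antigen of monocytes, are near-identical copies. Their coding sequences matched at 92.7% of 386 aligned bases and shared an unbroken run of 188 bases, coding bases 66 to 253 in both. The run is longer than a 90-base read, so a read inside it matches both genes. It is shown in capitals, with 10 bases of each gene's own coding sequence on either side in lower case. The stretch joins 3 exons on the minus strand of GRCm38, for Ly6c1 within chr15:75045535-75048456 and for Ly6c2 within chr15:75108676-75111612.
Ly6c1: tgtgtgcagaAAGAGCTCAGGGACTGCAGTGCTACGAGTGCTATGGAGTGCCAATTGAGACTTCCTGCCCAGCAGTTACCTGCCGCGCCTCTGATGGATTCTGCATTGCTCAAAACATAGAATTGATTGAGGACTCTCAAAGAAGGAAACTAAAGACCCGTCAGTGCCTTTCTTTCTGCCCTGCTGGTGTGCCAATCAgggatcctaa
Ly6c2: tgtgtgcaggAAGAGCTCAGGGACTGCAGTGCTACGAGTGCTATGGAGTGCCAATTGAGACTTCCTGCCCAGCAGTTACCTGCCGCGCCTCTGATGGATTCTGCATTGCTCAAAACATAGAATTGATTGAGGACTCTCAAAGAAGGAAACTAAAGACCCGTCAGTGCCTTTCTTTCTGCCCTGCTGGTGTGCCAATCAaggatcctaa
Only the flanks differ between the lines.

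Cut into all possible 90-base windows, the chosen transcript of Ly6c1 had 99 of 695 windows (14.2%) that also occur in a transcript of Ly6c2. Of the Ly6c2 windows, 134 of 733 (18.3%) occur in a transcript of Ly6c1. For Ly6a, Ly6e, Ly6g and Ly6i no window occurred in a transcript of another annotated gene. Their closest coding pair was Ly6a and Ly6i, with 86.3% identity and a longest shared run of 80 bases. Ly6e was the most distant member, at 58.9% to 60.5% identity to the other 5. Ly6c1 and Ly6c2 values are therefore uncertain as single genes, whereas the other 4 are distinct at read length.

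The windows just before the transcription start are shown for Ly6c1, Ly6c2 and Ly6g because these genes share sequence there while their levels differ widely. Each line gives the 250 bases before the start, 5′ to 3′ on the gene's strand, from the RefSeq promoter table (GRCm38.p6), which held 3 of the 6 members. The Ly6c1 window is chr15:75048838-75049087 on the minus strand, that of Ly6c2 is chr15:75111972-75112221 on the minus strand, and that of Ly6g is chr15:75155011-75155260 on the plus strand. The starts are those of RefSeq. That of Ly6g lies 21 bases inside the gene as annotated by GENCODE, so its window ends within that gene. Capitals mark the letters TATAAA, the TATA box, and GAGGAAGT, a core bound by the myeloid ETS factor PU.1.
Ly6c1: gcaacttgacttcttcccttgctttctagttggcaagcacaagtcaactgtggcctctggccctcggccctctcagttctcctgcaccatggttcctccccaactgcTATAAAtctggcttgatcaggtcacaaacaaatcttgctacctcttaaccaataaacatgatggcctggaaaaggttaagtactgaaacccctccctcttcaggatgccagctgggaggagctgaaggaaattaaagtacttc
Ly6c2: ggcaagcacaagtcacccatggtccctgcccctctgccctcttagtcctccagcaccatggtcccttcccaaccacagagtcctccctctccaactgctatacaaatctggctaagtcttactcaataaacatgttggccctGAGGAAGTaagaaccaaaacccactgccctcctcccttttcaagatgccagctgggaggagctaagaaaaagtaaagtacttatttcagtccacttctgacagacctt
Ly6g: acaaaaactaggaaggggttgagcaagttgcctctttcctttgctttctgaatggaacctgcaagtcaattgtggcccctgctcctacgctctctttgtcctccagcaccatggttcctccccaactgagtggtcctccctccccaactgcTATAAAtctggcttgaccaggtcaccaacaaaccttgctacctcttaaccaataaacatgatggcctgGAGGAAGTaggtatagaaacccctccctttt
Both strands of each window were searched for 7 motifs. TATAAA was found in Ly6c1, at -143 from the start, and in Ly6g, at -99. Of 32851 promoter windows of the same length, 12.4% hold it. GAGGAAGT was found in Ly6c2, at -108, and in Ly6g, at -31, and 2.44% of windows hold it. The C/EBP motif TTGCNNAA was found in Ly6g alone, at -232, and 9.56% of windows hold it. The letters GATAA for GATA factors (22.6% of windows), TTCNNNGAA for STAT factors (7.02%), the interferon-stimulated response element (2.98%) and the E-box CACGTG (6.02%) were in none of the 3 windows. No match overlapped another. Over aligned bases the Ly6c1 window matched that of Ly6g at 83.5% and that of Ly6c2 at 75.9%, and those of Ly6c2 and Ly6g matched at 80.3%. With gaps counted, these values were 58.5%, 57.7% and 42.5%, so that the windows of Ly6c2 and Ly6g were the least alike. A match of letters is a description, not a bound site.

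In these leukaemia cells Ly6c2 and Ly6e were the abundant members, Ly6a and Ly6g were low to intermediate, and Ly6i and Ly6c1 were close to the limit of counting. As the mean CPM per kilobase of the chosen transcript over the 6 libraries, the levels ran from 897 for Ly6c2 through 329 for Ly6e, 46.5 for Ly6a, 37.1 for Ly6g and 2.46 for Ly6i to 1.29 for Ly6c1. Ly6a and Ly6g, neighbours in this order, do not differ beyond their spread, since their levels overlapped over 3.82 to 174 and 4.61 to 162 CPM per kilobase. Ly6i (0.148 to 8.41) and Ly6c1 (0.509 to 2.63) also overlapped, while Ly6c2 (674 to 1247) and Ly6e (140 to 700) met only at the edge of their ranges. Divided by all annotated exon bases instead, Ly6c2 was at 269, Ly6e at 198, Ly6g at 37.07 and Ly6a at 36.85 CPM per kilobase. The order of Ly6a and Ly6g thus depends on the length used.

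**Figure D1:**
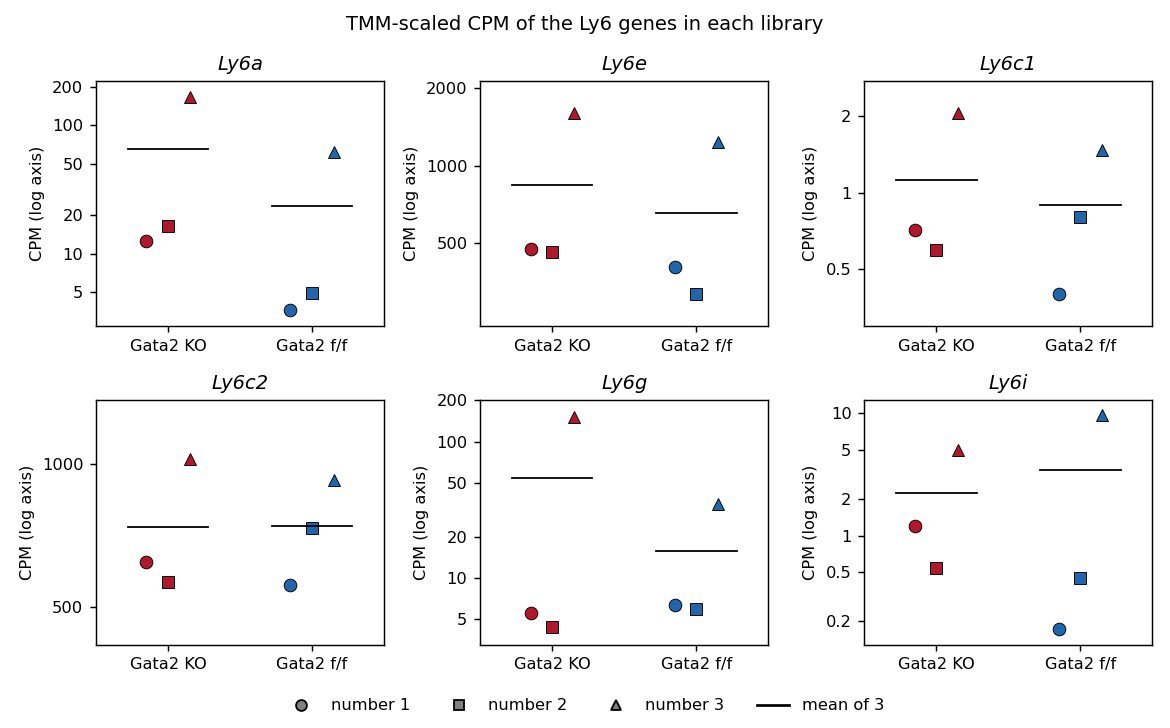
TMM-scaled CPM (log axes, each panel on its own range) of the 6 Ly6 genes in each Gata2 KO (left) and Gata2 f/f (right) library, with the symbol giving the number and the bar the mean of 3. In every panel the triangle of number 3 is the highest of its genotype, and in no panel do the Gata2 KO and Gata2 f/f libraries separate.

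Ly6a, which encodes the stem cell antigen Sca-1, had 12.6, 16.4 and 166 CPM in labelled Gata2 KO libraries 1, 2 and 3, against 3.65, 4.91 and 62.4 CPM in Gata2 f/f 1, 2 and 3. Each Gata2 KO library was above the Gata2 f/f library of its own number, but Gata2 f/f 3 was above the libraries labelled Gata2 KO 1 and 2, so the groups overlapped. The ratios of Gata2 KO to Gata2 f/f were 3.44, 3.35 and 2.67 for numbers 1, 2 and 3. The means were 65.1 ± 87.7 CPM in Gata2 KO and 23.7 ± 33.6 CPM in Gata2 f/f (SD, n = 3 each). The log2 fold change was 1.46 ± 1.36 (SE). With the number as a block, which left 2 residual degrees of freedom, it was 1.63 ± 0.18. Ly6a was chosen on this contrast, so the smaller error is not read as a test. The ratio of 3.35 includes the library labelled Gata2 KO 2, which goes against its label at Gata2. A link between the Gata2 level and Ly6a was not tested. Without Gata2 KO 3 the unblocked log2 fold change turned to -0.72.

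Ly6e encodes a broadly expressed member that interferon induces and that serves in mouse placenta as the receptor of a retrovirus-derived fusion protein. It had 477, 463 and 1597 CPM in labelled Gata2 KO libraries 1, 2 and 3, against 404, 319 and 1238 CPM in Gata2 f/f 1, 2 and 3. Each Gata2 KO library was again above the Gata2 f/f library of its number, by smaller ratios of 1.18, 1.45 and 1.29, and the groups overlapped. The means were 846 ± 650 CPM in Gata2 KO and 654 ± 508 CPM in Gata2 f/f (SD, n = 3 each), and the log2 fold change was 0.37 ± 0.68 (SE). Without Gata2 KO 3 it turned to -0.49.

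Ly6c2 was the member whose genotype means lay closest together. It had 621, 563 and 1025 CPM in labelled Gata2 KO libraries 1, 2 and 3, against 554, 733 and 926 CPM in Gata2 f/f 1, 2 and 3. The Gata2 KO library was the higher one for numbers 1 and 3 and the lower one for number 2, with ratios of 1.12, 1.11 and 0.768 for numbers 1, 3 and 2. The means were 736 ± 252 CPM in Gata2 KO and 738 ± 186 CPM in Gata2 f/f (SD, n = 3 each), with a log2 fold change of -0.0027 ± 0.33 (SE). Its sign depended on the library left out, over a range of -0.34 without Gata2 KO 3 to 0.15 without Gata2 f/f 3.

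Ly6c1 rested on 15, 11 and 49 counts in labelled Gata2 KO libraries 1, 2 and 3, against 7, 18 and 37 counts in Gata2 f/f 1, 2 and 3. In CPM this was 0.716, 0.597 and 2.06 in Gata2 KO and 0.399, 0.803 and 1.47 in Gata2 f/f, with overlapping groups. The log2 fold change was 0.33 ± 0.68 (SE), and it turned to -0.48 without Gata2 KO 3 and to -0.052 without Gata2 f/f 1. Ly6c1 counts made up 1.15, 1.06 and 2.01 per 1000 Ly6c2 counts in labelled Gata2 KO libraries 1, 2 and 3, against 0.720, 1.09 and 1.59 in Gata2 f/f 1, 2 and 3. Reads shared with Ly6c2 could supply counts at that level, and their part in the Ly6c1 values was not tested.

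Ly6g encodes the neutrophil antigen Ly6G, the defining surface marker of mouse neutrophils. It had 5.59, 4.34 and 152 CPM in labelled Gata2 KO libraries 1, 2 and 3, against 6.39, 5.98 and 34.9 CPM in Gata2 f/f 1, 2 and 3. The libraries labelled Gata2 KO 1 and 2 were the lowest of all 6, and Gata2 KO 3 was the highest. Within numbers 1 and 2 the ratios of Gata2 KO to Gata2 f/f were 0.875 and 0.727, and within number 3 the ratio was 4.37. The mean of 54.1 ± 85.1 CPM in Gata2 KO, against 15.7 ± 16.6 CPM in Gata2 f/f (SD, n = 3 each), was thus set by 1 library. The log2 fold change was 1.78 ± 1.42 (SE) without a block and 0.54 ± 0.53 with the number as a block, and it turned to -1.68 without Gata2 KO 3 and to -0.35 without both libraries numbered 3.

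Ly6i is a little-studied member close to Ly6a in sequence. It had 25, 10 and 119 counts in labelled Gata2 KO libraries 1, 2 and 3, against 3, 10 and 244 counts in Gata2 f/f 1, 2 and 3. In CPM this was 1.19, 0.543 and 5.00 in Gata2 KO and 0.171, 0.446 and 9.72 in Gata2 f/f. The highest and the lowest library were both Gata2 f/f. The Gata2 KO library was higher for numbers 1 and 2 and lower for number 3, with log2 differences of 2.28, 0.24 and -0.95 for numbers 1, 2 and 3. The log2 fold change was -0.62 ± 1.41 (SE), it had the other sign with the number as a block (0.31 ± 0.68), and it turned to 2.78 without Gata2 f/f 3.

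Of the 6 members, 2 were higher in the Gata2 KO library of every number, Ly6a and Ly6e, where 20.7% of the 13744 genes tested had that layout. In 0 of 6 was every Gata2 KO library above every Gata2 f/f library, where 2.64% of genes tested had that layout. The members' median log2 fold change was 0.35, beside 0.021 over all genes tested. Of the 13744 genes tested, 7220 had a positive log2 fold change, to be set beside the counts of positive genotype values in the lists below. In edgeR's quasi-likelihood test across all genes 0.0% were called between genotypes, with 171 genes at an unadjusted p under 0.05, and DESeq2 called 7 genes. DESeq2 with the number as a block called 0.881% of the 24057 genes given to it, 1 of the 6 members among them. The members were chosen on this contrast, so nothing is read from their counts in it.

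**Figure D2:**
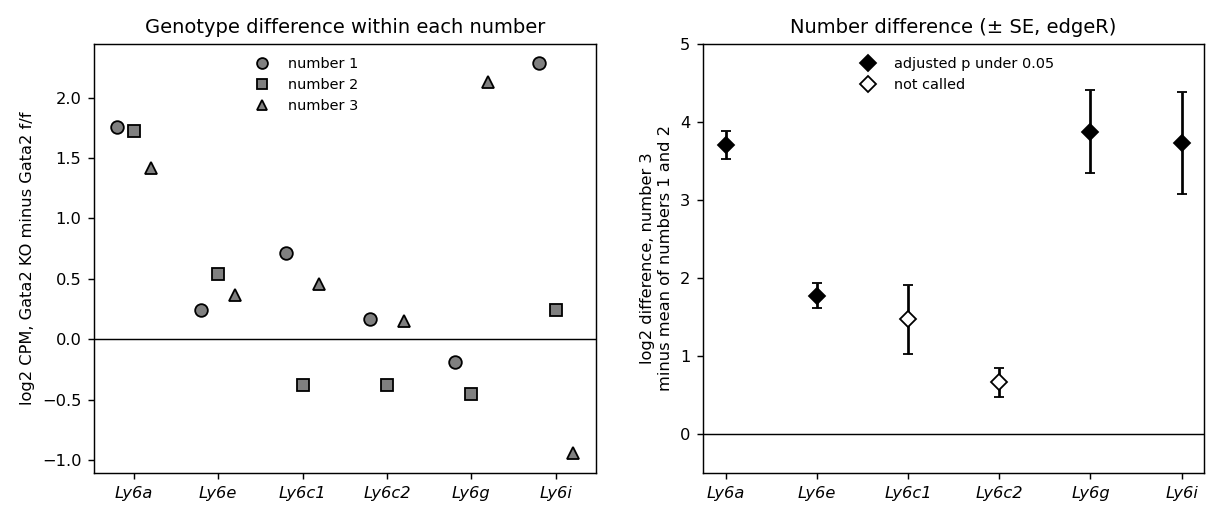
Left, log2 CPM of the Gata2 KO library minus that of the Gata2 f/f library of the same number for each Ly6 gene, and right, the edgeR log2 difference of number 3 from the mean of numbers 1 and 2 with its standard error. Ly6a and Ly6e are above 0 at every number on the left, and all 6 genes are above 0 on the right, from 0.66 for Ly6c2 to 3.88 for Ly6g.

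The larger difference in these genes lay between libraries of different number. The choice of members by genotype did not use this comparison, although the levels were known when they were chosen. In a fit with genotype and number, edgeR called 4 of the 6 members between numbers, all higher in number 3, where 6.63% of genes tested were called with number 3 higher and 9.09% were called in either direction. Both libraries numbered 3 were above the other 4 in 6 of 6 members, against 21.1% of genes tested, and both were below the other 4 in 0 of 6, against 20.4%. Without the library labelled Gata2 KO 2, again 4 members were called between numbers. The median log2 difference of number 3 from the mean of numbers 1 and 2 was 2.74 over the 6 members and -0.0012 over all genes tested. This difference was positive in 6861 of the 13744 genes tested.

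Ly6g had the largest of these differences, 3.88 ± 0.53 (SE) on the log2 scale (edgeR, adjusted p = 0.0218 over all genes). Here and below, an adjusted p beside a difference of number 3 comes from the test between numbers. That test asks for any difference among numbers 1, 2 and 3, not for number 3 alone. Ly6i had 3.73 ± 0.65 (adjusted p = 0.0402) and Ly6a 3.70 ± 0.18 (adjusted p = 0.00341). The gene Ly6e followed with 1.77 ± 0.16 (edgeR, adjusted p = 0.00875). Ly6c1, at 1.47 ± 0.44, and Ly6c2, at 0.66 ± 0.18, did not pass the test (adjusted p = 0.138 and 0.118). Among the 13744 differences tested, Ly6g ranked 50th, Ly6i 65th and Ly6a 70th from the most positive, with at most 0.509% of genes at least as high, while 19.9% of genes were at least as high as Ly6c2. The Ly6i call was lost without Gata2 KO 3 (4.87, adjusted p = 0.0612) and without Gata2 f/f 3 (2.55, adjusted p = 0.107), and without Gata2 KO 3 the Ly6g difference was 2.48 (adjusted p = 0.0266). Without both libraries numbered 3, 0 members and 0 genes were called between numbers 1 and 2, with 2809 genes at an unadjusted p under 0.05.

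Ly6g, Ly6i and Ly6a had similar differences of number 3 overall but not the same layout within each genotype. For Ly6g the fold of number 3 over the mean of numbers 1 and 2 was 30.7 in Gata2 KO and 5.64 in Gata2 f/f. For Ly6i the folds were 5.76 in Gata2 KO and 31.5 in Gata2 f/f, the other way round. For Ly6a (11.5 in Gata2 KO and 14.6 in Gata2 f/f), Ly6e (3.40 and 3.42), Ly6c1 (3.14 and 2.45) and Ly6c2 (1.73 and 1.44) the folds of the genotypes were closer. With 1 library per genotype and number, a difference between these folds could not be tested.

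The make-up of the summed Ly6 message followed the number as well. Summed over the 6 members, the level was 986, 911 and 2290 CPM per kilobase in labelled Gata2 KO libraries 1, 2 and 3, against 863, 1044 and 1781 in Gata2 f/f 1, 2 and 3. Ly6c2 made up 76.6%, 75.2% and 54.5% of it in labelled Gata2 KO libraries 1, 2 and 3, against 78.2%, 85.4% and 63.2% in Gata2 f/f 1, 2 and 3. Per kilobase it was thus the largest part in every library, with its smallest shares in both libraries numbered 3. By counts without length correction, Ly6e was the largest part in both, at 54.2% in Gata2 KO 3 and 54.5% in Gata2 f/f 3. Ly6c2 then made up 34.8% and 40.7%. The share of Ly6e per kilobase was 21.2%, 22.3% and 30.6% in Gata2 KO, against 20.5%, 13.4% and 30.5% in Gata2 f/f. Ly6a contributed 1.33%, 1.89% and 7.61% in Gata2 KO, against 0.443%, 0.492% and 3.67% in Gata2 f/f. Its share was higher in the Gata2 KO library at each number. Ly6g contributed 0.602%, 0.507% and 7.07% in Gata2 KO, against 0.787%, 0.608% and 2.08% in Gata2 f/f. These are bulk cultures, in which fewer cells of a type and less RNA per cell cannot be told apart, so a share of message is not a share of cells.

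**Figure D3:**
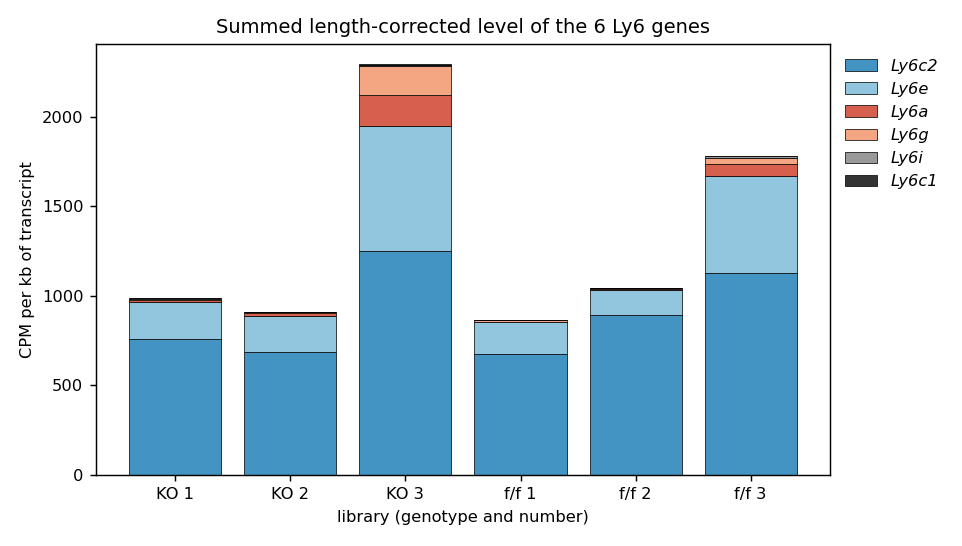
Summed CPM per kilobase of transcript of the 6 Ly6 genes in each library, stacked by gene, with Gata2 KO on the left and Gata2 f/f on the right. The columns of number 3 reach 2290 in Gata2 KO and 1781 in Gata2 f/f, above the 863 to 1044 of the other 4, with Ly6c2 the largest part in each.

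Along the locus the difference between numbers did not change evenly with position. Ly6g and Ly6i, 2 of the 3 members with the largest differences, lie near opposite ends, and Ly6c2, with the smallest, lies between Ly6c1 and Ly6g. Besides the members, 2 genes of the interval were tested, both pseudogenes. I830127L07Rik, a transcribed pseudogene next to Ly6g named here after its values were seen, had 65.9, 23.2 and 334 CPM in labelled Gata2 KO libraries 1, 2 and 3, against 33.0, 71.6 and 166 CPM in Gata2 f/f 1, 2 and 3. Its difference of number 3 was 2.33 ± 0.52, and it missed the threshold of edgeR's test between numbers (adjusted p = 0.0721). Gm5960 stayed at 0.543 to 1.18 CPM in Gata2 KO and 0.627 to 0.956 CPM in Gata2 f/f (log2 difference of number 3 0.53, adjusted p = 0.659). The remaining 5 genes of the interval did not pass the filter on low counts.

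**Figure D4:**
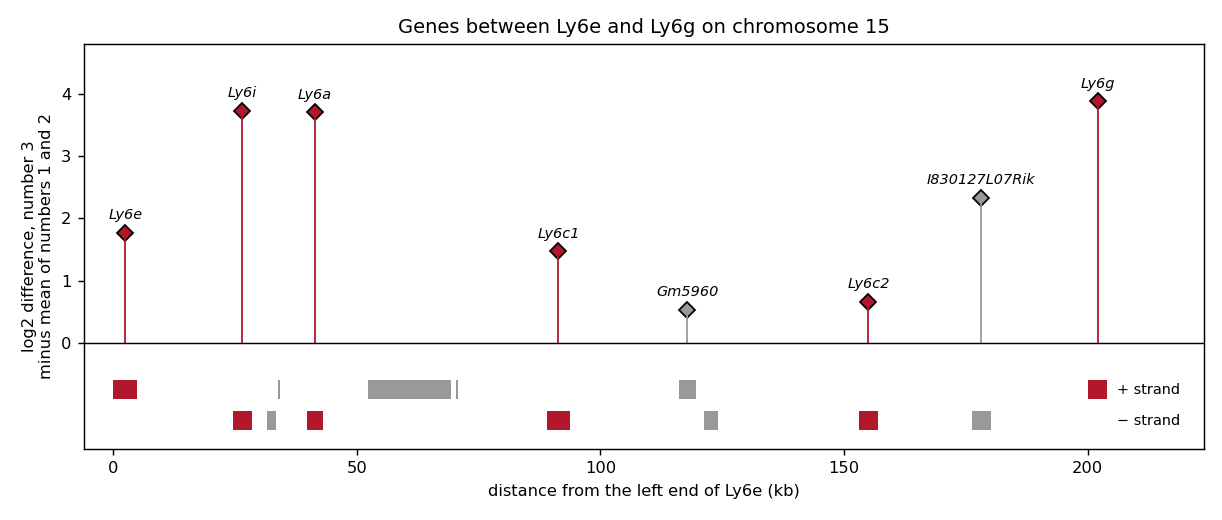
The edgeR log2 difference of number 3 from the mean of numbers 1 and 2 for the tested genes of the Ly6 interval (diamonds), against distance from the left end of Ly6e in kb, with members in red, other genes in grey and gene bodies drawn by strand below. Ly6g, Ly6i and Ly6a reach 3.70 to 3.88, while Ly6c2 is at 0.66.

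The members' profiles over the 6 libraries were alike. Pearson correlations of log2 CPM ran from 0.803 for Ly6g with Ly6i to 0.972 for Ly6c1 with Ly6c2. Among 9925 genes with a mean of at least 5 CPM, the profiles most like that of Ly6a were those of Ttc12 (r = 0.9995), Metrnl (0.9984) and Lsm10 (0.9975). Metrnl, which encodes a secreted meteorin-like protein, had 10.2, 11.2 and 46.5 CPM in labelled Gata2 KO libraries 1, 2 and 3, against 4.90, 5.31 and 23.5 CPM in Gata2 f/f 1, 2 and 3. Nearest to Ly6e were Dusp3 (0.9983), Cd74 (0.9982) and Chst14 (0.9976). Cd74, the invariant chain of MHC class II, had 37.3, 41.4 and 433 CPM in Gata2 KO and 25.5, 16.9 and 239 CPM in Gata2 f/f, a wider fold range than that of Ly6e. Nearest to Ly6c2 were Slc28a2 (0.9871), Cept1 (0.9858) and Ppp3cc (0.9853), and nearest to Ly6g were Cdk5 (0.9946), Ube2f (0.9937) and Slc35b1 (0.9922). Ly6c1 and Ly6i were below 5 CPM on average and were not compared. These r values are over 6 libraries, of which both numbered 3 stand apart, and describe likeness only.

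Outside the 6 members, most of the Ly6/uPAR family was at or near 0 counts. Of 36 entries on a list of its other genes, 33 were in the table, 14 of these had 0 counts in all 6 libraries, which allows up to 3 counts in a library, and 7 passed the filter. All 7 had a positive log2 fold change (median 0.57, beside 0.021 over all genes tested), and edgeR called 0 of them between genotypes. Cd177, a neutrophil surface glycoprotein, had 150, 40.4 and 191 CPM in labelled Gata2 KO libraries 1, 2 and 3, against 26.7, 37.7 and 54.6 CPM in Gata2 f/f 1, 2 and 3, a log2 fold change of 1.68 ± 0.56. It was higher in Gata2 KO at each number, most closely for number 2, and DESeq2 with the replicate block called it (adjusted p = 0.00553) while edgeR did not (adjusted p = 1.00). Plaur, the urokinase receptor, had 120, 78.0 and 191 CPM in Gata2 KO, against 57.1, 47.1 and 158 CPM in Gata2 f/f, a log2 fold change of 0.57 ± 0.53. The other leading genes were Cd59a, an inhibitor of complement, at 0.84 ± 0.59, and Gpihbp1, the anchor of lipoprotein lipase, at 0.82 ± 0.68. Both were low, with means of 1.41 and 2.06 CPM in Gata2 KO and 0.789 and 1.16 CPM in Gata2 f/f. Between numbers edgeR called 2 of the 7, Plaur (1.30, adjusted p = 0.0273) and Lynx1 (2.11, adjusted p = 0.0238), which encodes a modulator of nicotinic receptors, both higher in number 3.

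The genes that build the GPI anchor had medians near that of all genes. Of 28 tested, 16 had a positive log2 fold change between genotypes (median 0.0080), edgeR called 0 between genotypes, and 1 was called between numbers, higher in number 3 (median 0.16). Pigt, a subunit of the transamidase that attaches the anchor, had 244 ± 39.8 CPM in Gata2 KO and 185 ± 30.6 CPM in Gata2 f/f (SD, n = 3 each), and its log2 fold change was 0.40 ± 0.24. Gpaa1, another transamidase subunit, had 0.41 ± 0.26, and Pigw, an acyltransferase of anchor synthesis, had -0.54 ± 0.35. Other GPI-anchored leukocyte antigens were mostly higher in number 3. Of 16 tested, 9 were called between numbers with number 3 higher in each (median 1.99), and 11 had a positive genotype value (median 0.58), with 0 called by edgeR and 2 by DESeq2 with the replicate block. Thy1, a T cell and progenitor antigen, had a negative log2 fold change (-1.75 ± 0.91), with 13.7, 4.72 and 13.3 CPM in labelled Gata2 KO libraries 1, 2 and 3, against 17.8, 6.29 and 82.4 CPM in Gata2 f/f 1, 2 and 3.

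Monocyte markers were higher in number 3, as the Ly6 genes were. The summed CPM of 22 monocyte and macrophage markers was 2161, 1484 and 7478 in labelled Gata2 KO libraries 1, 2 and 3, against 589, 479 and 5771 in Gata2 f/f 1, 2 and 3. Of the 22, edgeR called 16 between numbers, each higher in number 3 (median 2.28), and 21 had both libraries numbered 3 above the other 4. Cd68, a lysosomal glycoprotein of macrophages, had 123, 77.2 and 723 CPM in Gata2 KO, against 37.5, 31.5 and 371 CPM in Gata2 f/f, with a log2 difference of number 3 of 3.17 (edgeR, adjusted p = 0.00376). Between genotypes, 21 of the 22 had a positive value (median 0.45), edgeR called 0 and DESeq2 with the replicate block 3. This sum was higher in the Gata2 KO library at each number, as Ly6a was, and its part in the Ly6a values was not tested.

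Most neutrophil markers had a positive difference of number 3, as Ly6g did, but the most abundant one did not. The sum over all 20 genes was 5762, 2630 and 6079 CPM in labelled Gata2 KO libraries 1, 2 and 3, against 2155, 3584 and 3866 CPM in Gata2 f/f 1, 2 and 3. The primary granule enzymes Elane and Mpo together supplied 3443, 1716 and 1687 CPM of it in Gata2 KO, against 1612, 2726 and 1390 CPM in Gata2 f/f. Their differences of number 3 were -0.38 for Elane and -3.05 for Mpo, and neither gene was called between numbers (edgeR, adjusted p = 0.623 and 0.106). Without Elane alone, the sum was 3271, 1126 and 4420 CPM in Gata2 KO, against 762, 1304.5 and 2561 CPM in Gata2 f/f. Gata2 KO 1 was then above Gata2 f/f 3. Without both Elane and Mpo, a pair left out after the values were seen, both libraries numbered 3 were the highest. The sum over the 18 genes kept was 2319, 914 and 4392 CPM in Gata2 KO, against 543, 858 and 2476 CPM in Gata2 f/f. S100a9, a subunit of the neutrophil protein calprotectin, had 494, 130 and 692 CPM in Gata2 KO, against 58.4, 145 and 213 CPM in Gata2 f/f. The chemokine receptor Cxcr2, with 33.1, 7.06 and 144 CPM in labelled Gata2 KO libraries 1, 2 and 3 and 6.50, 3.39 and 19.1 CPM in Gata2 f/f 1, 2 and 3, was called between numbers (2.66, edgeR, adjusted p = 0.0185). Of 19 tested, 18 had a positive genotype value (median 1.14), edgeR called 0 and DESeq2 with the replicate block 7. Between numbers 16 of the 19 had a positive difference of number 3 (median 1.42), 6 were called, each higher in number 3, and 6 had both libraries numbered 3 above the other 4. The part of these markers in the Ly6g values was not tested.

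**Figure D5:**
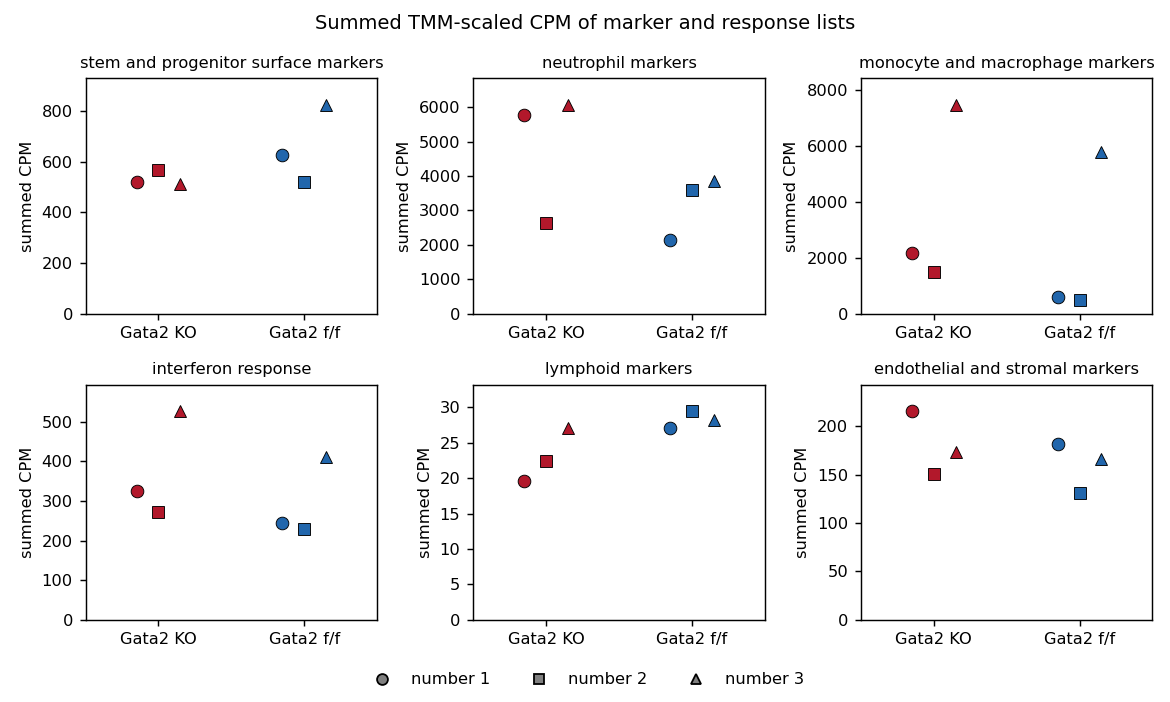
Summed TMM-scaled CPM of 6 gene lists in each library, Gata2 KO on the left and Gata2 f/f on the right of each panel, with the symbol giving the number and each panel on its own axis from 0. The monocyte and macrophage sum is highest in both libraries numbered 3 (7478 in Gata2 KO and 5771 in Gata2 f/f), whereas the neutrophil sum, 5762 in Gata2 KO 1 and 6079 in Gata2 KO 3, includes 3443 and 1687 CPM of Elane and Mpo.

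Stem and progenitor surface markers are stained together with Sca-1, the product of Ly6a. Their sum over 14 genes was 522, 567 and 514 CPM in labelled Gata2 KO libraries 1, 2 and 3, against 627, 522 and 826 CPM in Gata2 f/f 1, 2 and 3. Cd93, a lectin-like receptor, made up 316 to 542 CPM of it. Without Cd93 the sum was 133, 195 and 198 CPM in Gata2 KO, against 210, 183 and 284 CPM in Gata2 f/f. Kit, the stem cell factor receptor, was named here after its values were seen. It had 59.7, 58.0 and 1.34 CPM in Gata2 KO, against 88.7, 78.1 and 28.5 CPM in Gata2 f/f. Its difference of number 3 was -2.90, and it was not called between numbers (edgeR, adjusted p = 0.145). Of 11 tested, 4 had a positive genotype value (median -0.27), and edgeR called 0 between genotypes. Between numbers 7 of the 11 had a positive difference of number 3 (median 0.23) and 3 were called, each higher in number 3. DESeq2 with the replicate block called 1, Cd34, lower in Gata2 KO (adjusted p = 0.00152).

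Interferon response genes, a group known to include Ly6e and Ly6a among its targets, were highest in both libraries numbered 3. Their sum over 28 genes was 325, 272 and 528 CPM in labelled Gata2 KO libraries 1, 2 and 3, against 244, 229 and 410 CPM in Gata2 f/f 1, 2 and 3. Within each number the Gata2 KO library had the higher sum, as for Ly6a and Ly6e. Of 23 tested, 20 had both libraries numbered 3 above the other 4, 8 were called between numbers, each higher in number 3, and 21 had a positive genotype value (median 0.47), with 0 called by edgeR and 1 by DESeq2 with the replicate block. That gene was Zbp1, a sensor of nucleic acids, with 8.31, 4.83 and 22.1 CPM in Gata2 KO, against 2.57, 2.23 and 10.2 CPM in Gata2 f/f (DESeq2 with the replicate block, adjusted p = 0.0177). The part of interferon signalling in the Ly6 values was not tested.

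Markers of other cell types that a bone marrow culture could hold were mostly low, apart from Pecam1. The sum of 18 lymphoid markers was 19.6 to 27.0 CPM in Gata2 KO and 27.1 to 29.5 CPM in Gata2 f/f, with Pax5, Ncr1 and Klrb1c at 0 counts in all 6 libraries. The T cell gene Cd3g reached 0.798 CPM in Gata2 KO and 0.478 CPM in Gata2 f/f. Sums of 13 mast cell, basophil and eosinophil markers were 8.28 to 47.4 CPM in Gata2 KO, highest in the library labelled Gata2 KO 2, and 9.56 to 19.0 CPM in Gata2 f/f. Sums of 11 erythroid and megakaryocyte markers were 7.16 to 18.5 CPM in Gata2 KO and 6.47 to 30.3 CPM in Gata2 f/f. Sums of 10 endothelial and stromal markers were 151 to 216 CPM in Gata2 KO and 131 to 182 CPM in Gata2 f/f, of which 116 to 195 CPM over the 6 libraries were Pecam1, an adhesion molecule that leukocytes also carry. Without Pecam1 the sum was 21.2, 25.4 and 55.8 CPM in Gata2 KO, against 20.1, 15.3 and 41.3 CPM in Gata2 f/f, so that both libraries numbered 3 were the highest. Of 9 tested, 4 were called between numbers, each higher in number 3 (median 1.43), and 6 had both libraries numbered 3 above the other 4. The lymphoid sum, too, was highest in both libraries numbered 3 once its most abundant gene, Nkg7 of cytotoxic lymphocytes, was left out. It was then 4.01, 10.1 and 24.1 CPM in Gata2 KO, against 8.27, 7.94 and 20.4 CPM in Gata2 f/f. The gene Il7r alone supplied 13.6 CPM of it in Gata2 KO 3 and 12.985 CPM in Gata2 f/f 3. Nkg7 itself was called between numbers, lower in number 3 (-1.78, edgeR, adjusted p = 0.0404). Of 4 lymphoid markers tested, 1 had both libraries numbered 3 above the other 4. The part of other cell types in the Ly6 values was not tested.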

How the data were processed

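Poly(A) RNA of 6 cultures was sequenced as 90 bp paired-end reads, per the labels' protocols. The authors deposited 1 table of raw counts per gene. Tools named in the submitters' processing notes are HTSeq, kallisto and DESeq2, with the build mm10 and no role or version. The sources used here do not give the tool that counted, the use of strand or the treatment of reads that match several genes. Of 49585 identifiers, 49326 (99.48%) matched GENCODE M21 (GRCm38) without their version. The labels call the 3 samples per group independent without naming their origin, and p-values cover only the spread among them, which may be technical. Intervals of counts were not computed, and reads carry no molecular identifiers.

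The 6 genes and the 11 context lists (220 entries) were chosen with earlier results of these data known. Genes were filtered by filterByExpr (minimum count 10), which kept 13744 (27.72%, holding 99.89% of counts) and all 6 Ly6 genes. edgeR's quasi-likelihood test (edgeR 4.0.16, limma 3.58.1, R 4.3.3; TMM, robust) compared Gata2 KO with Gata2 f/f without a block, and numbers in a fit with genotype and number. The test between numbers gave a p-value for any difference among them. The difference of number 3 and its SE came from the same fit, without a p-value of their own. Adjusted p-values are Benjamini-Hochberg over all genes tested, with a threshold of 0.05. CPM values were computed from the deposited counts, and correlations used log2 CPM with a prior count of 2. The scripts were tested on simulated counts. DESeq2 was version 1.42.0, sequences were aligned with Biopython 1.88 and plots drawn with matplotlib 3.10.9.

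Named genes were the 6 members, Gata2, the 3 nearest profiles of each member above 5 CPM, up to 4 genes of smallest unadjusted genotype p per list, and the genes of the locus. Lynx1, Kit, Elane, Mpo, Cd93, Pecam1, I830127L07Rik and Gm5960 were named after their values were seen.

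Deviations from group means correlated at 0.294, 0.555 and 0.653 between the Gata2 KO and Gata2 f/f libraries numbered 1, 2 and 3. All exceeded 0.1, and the numbers were therefore treated as pairs in the ratios within numbers and in the replicate block. Gata2 KO 2 with Gata2 f/f 1 (0.455) and Gata2 KO 1 with Gata2 f/f 2 (0.104) exceeded it too. The check thus set number 3 apart but could not tell which libraries numbered 1 and 2 belong together. The replicate block left 2 residual degrees of freedom, against 4 without it. Alternatives were 2 other scalings, no filter, DESeq2, the replicate block, no genotype term, and leaving out libraries. The fit without the library labelled Gata2 KO 2 with the replicate block was added after seeing the data, as were list sums without their most abundant genes.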

Additional observations from a re-analysis of the deposited data

How the results depend on the processing

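Between genotypes edgeR called 0 genes under both other scalings, without the filter, with the replicate block (1473 genes at an unadjusted p under 0.05, against 171 without the block) and without any single library. DESeq2 called 7, DESeq2 with the replicate block 212, and edgeR without the library labelled Gata2 KO 2 but with the replicate block, added after seeing the data, 54. The listed related genes called were 14 with DESeq2 and the replicate block and 8 in the added fit, against 0, and each of these fits also called 1 of the 6 members, which were chosen on this contrast. Genes called between numbers were 1249, against 2348 without the filter, 2776 with DESeq2, 444 without the genotype term, 0 without both libraries numbered 3, and 757 (without Gata2 KO 3) to 3460 (without Gata2 f/f 3) when 1 library was left out. Members called between numbers were 3 to 4 when 1 library was left out and 0 without both libraries numbered 3. Besides the losses of Ly6i without either library numbered 3, the Ly6g call was lost without the filter (adjusted p = 0.127) and the Ly6a call without the genotype term (adjusted p = 0.0802); the causes were not tested. Ly6e kept its call in each of the 11 alternatives that kept at least 1 library numbered 3 (adjusted p up to 0.0281). With 1 library left out, the genotype log2 fold changes ran from -0.72 to 3.90 for Ly6a, -0.49 to 1.20 for Ly6e, -0.48 to 0.85 for Ly6c1, -0.34 to 0.15 for Ly6c2, -1.68 to 3.11 for Ly6g and -2.01 to 2.78 for Ly6i. The replicate block turned the Ly6i value to 0.31 and lowered that of Ly6g to 0.54; it changed no edgeR call. Ly6c1 and Ly6i, with 7 to 49 and 3 to 244 counts per library, are limited by depth.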
